A study of Mus musculus with 6 samples.

Results

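The transcripts of 10 genes of the NF-κB system were followed in corneal epithelial cells, of 17784 genes listed in the deposited table. They comprised the 5 subunit genes *Rela*, *Relb*, *Rel*, *Nfkb1* and *Nfkb2*, and 5 feedback genes, the IκB family genes *Nfkbia*, *Nfkbie*, *Bcl3* and *Nfkbiz* together with *Tnfaip3*. They were chosen by name and selected on their read counts and TPM values in the contrast described here, so the differences of the 10 genes between groups are given as a description and without a test. Of the 10, 9 were among the 12999 genes tested, and *Nfkbie* had too few reads to pass the filter on low counts.

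NF-κB is a family of dimeric transcription factors assembled from RelA, RelB, c-Rel, p50 and p52. In resting cells the dimers are held in the cytoplasm by IκB proteins, and stimuli such as TNF and IL-1 activate the IκB kinase, which marks IκB for degradation and frees the dimers to enter the nucleus. The dimers then induce their own inhibitors. IκBα and IκBε return dimers to the cytoplasm, Bcl-3 and IκBζ act on p50 and p52 homodimers in the nucleus, and A20, the product of *Tnfaip3*, limits signalling upstream of the kinase. In the corneal surface the pathway is known for its part in the response to injury and infection.

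Bulk RNA-seq compared 3 control samples with 3 samples from *Prrx1-CreERT;Ptch1* f/f mice, written Ptch1Prrx1. *Prrx1-CreERT* is a tamoxifen-inducible recombinase active in keratocytes and other mesenchymal cells of the eye, so the deletion of *Ptch1*, the inhibitory receptor of Hedgehog signalling, was directed at the stroma beneath the sequenced epithelium. Both groups received 3 doses of tamoxifen, the labels give an age of 10 weeks and an interval of 2 months, and the epithelium was detached with EDTA. The control samples are named WT and ctrl in the labels, and the alleles they carried, the sex of each sample and whether animals were pooled are not given in the sources used here.

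The expected counts summed to between 20296741 and 20625813 per sample, at which 3 counts were worth 0.145 to 0.148 CPM (counts scaled to library size). *Ptch1* (gene 19206) had 517, 659 and 682 normalized counts in control samples 1, 2 and 3 and 390, 445 and 471 in Ptch1Prrx1 samples 1, 2 and 3, a log2 fold change of -0.51 (SE 0.13, adjusted p = 0.0401, edgeR) that did not reach 2-fold. The adjusted p of *Ptch1* was above 0.05 in 7 of 14 alternatives, at 0.0564 to 0.143, in both limma fits on TPM and in edgeR without control sample 2 or 3 or any one Ptch1Prrx1 sample. Calls required both a 2-fold change and an adjusted p no higher than 0.05 in edgeR's quasi-likelihood test, and of 12999 genes tested 2.34% were called higher in Ptch1Prrx1 samples and 0.892% lower. The median log2 fold change of all tested genes was -0.01. The label of epithelium was checked against 9 marker genes, whose summed level was 100800 to 108169 TPM (a transcript level that allows for gene length) in control samples and 92880 to 110806 TPM in Ptch1Prrx1 samples. Of the 9, 1 was called higher. This was *Krt14*, a keratin of basal cells, with 534, 535 and 644 TPM in the control samples and 5798, 3254 and 2420 TPM in the Ptch1Prrx1 samples. The 10 stromal markers listed summed to 21.7, 18.2 and 66.2 TPM in control samples 1, 2 and 3 and 25.7 to 32.9 TPM in Ptch1Prrx1 samples. In control sample 3, *Col1a2* was at 26.0 and *Vim* at 20.8 TPM, against 0.91 to 1.69 and 1.71 to 2.23 TPM in the other controls. *Kera* stayed at 0 to 0.07 TPM in every sample. *Ptprc*, the pan-leukocyte marker, stayed at 0.02 to 0.20 TPM. The 16 immune markers summed to 135 to 175 TPM in control samples and 158 to 667 TPM in Ptch1Prrx1 samples, the highest value being that of Ptch1Prrx1 sample 1. Without the neutrophil genes *S100a8* and *S100a9*, which keratinocytes can also express, the ranges were 134 to 174 and 157 to 215 TPM. Most of these sums came from *Itgam*, at 67.0 to 129 TPM over all samples, and *Cd68*, at 45.3 to 65.5 TPM. In bulk samples a change in the share of a cell type and a change in RNA per cell cannot be told apart.

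The promoters are shown first because NF-κB is known to act on several of these genes itself. RefSeq promoter windows, which run from 250 bases before to 50 bases after an annotated start on build GRCm38.p6, were at hand for 7 of the 10 genes, and *Relb*, *Nfkb1* and *Nfkbiz* had none. The 10-base NF-κB consensus, searched on both strands with overlapping matches counted, was found for 6 of the 7 genes (85.7%), against 2581 of 27025 genes with a window (9.55%) and 12 of 22 known target genes (54.5%). Among tested genes it was found in 12.3%, among genes called higher in 15% and among genes called lower in 18.5%. The window of *Rela* held none. A match describes letters in the window and is not evidence of binding in these cells.

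The 150 bases before the start of *Nfkbia* (chr12:55492648-55492797, minus strand) and of *Nfkbie* (chr17:45555550-45555699, plus strand), both upstream of annotated transcripts, are printed because these are the classical cytoplasmic inhibitors. Sequences are 5′ to 3′ on the gene's strand, and capitals mark the letters that match the consensus.
Nfkbia: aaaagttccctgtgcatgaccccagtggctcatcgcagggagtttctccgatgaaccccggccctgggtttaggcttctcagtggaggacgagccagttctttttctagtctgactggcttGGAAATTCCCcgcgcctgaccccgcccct
Nfkbie: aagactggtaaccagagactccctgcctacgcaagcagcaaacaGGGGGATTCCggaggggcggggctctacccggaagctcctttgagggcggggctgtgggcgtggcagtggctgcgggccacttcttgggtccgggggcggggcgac
Counted from the start, the match began at position -29 in *Nfkbia* and -106 in *Nfkbie*.

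For the 2 feedback genes with the largest differences, 30 bases around each match are shown. The *Bcl3* match (chr7:19822734-19822763, minus strand) began at position 3, in annotated UTR, and read as a match on both strands. So did the *Tnfaip3* match at -125 and, of those shown further below, the *Rel* match at -92 and the *Nfkb2* match at -39. The *Tnfaip3* matches (chr10:19015403-19015432 and chr10:19015516-19015545, minus strand) began at positions -12 and -125, within an annotated intron of the gene.
Bcl3: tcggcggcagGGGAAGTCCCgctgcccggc
Tnfaip3, nearer: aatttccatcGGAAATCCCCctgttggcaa
Tnfaip3, farther: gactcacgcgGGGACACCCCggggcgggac

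The subunit genes *Rel* and *Nfkb2* are shown beside them. *Rel* (chr11:23771042-23771071, minus strand) held 2 overlapping matches at positions -92 and -91, upstream of annotated transcripts. *Nfkb2* had 3 windows, and the first held 2 overlapping matches at positions -39 and -38 (chr19:46304688-46304717, plus strand) and another at -11 (chr19:46304716-46304745), all in annotated *Nfkb2* UTR.
Rel: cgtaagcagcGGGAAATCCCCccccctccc
Nfkb2, farther: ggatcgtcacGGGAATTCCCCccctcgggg
Nfkb2, nearer: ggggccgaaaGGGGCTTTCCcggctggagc

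**Figure D1:**
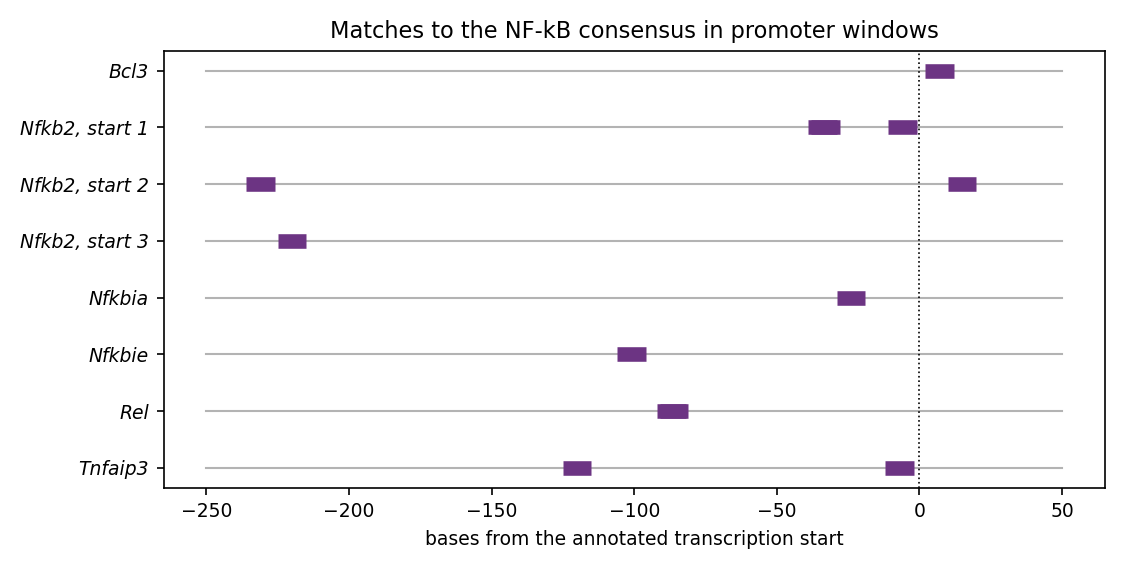
Positions of NF-κB consensus matches in the RefSeq promoter windows, in bases from the annotated start (dotted line), with 1 row for each window that held a match. *Nfkb2* fills several rows because it has 3 windows, and its matches at position 11 from one start and -225 from the next are the same bases.

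All 9 members tested had a log2 fold change above 0, as had 48.5% of all tested genes, and the median over them was 0.48. The feedback genes *Bcl3* and *Tnfaip3* stood at 3.25 and 2.95 times the control level, and the 5 subunit genes at 1.18 to 1.42 times. Of the 9 tested, 2 lay within the call rule upward, where 2.34% of all tested genes did, and 0 downward, where 0.892% did. The groups did not overlap, with every Ptch1Prrx1 sample higher, for 8 of the 9 in normalized counts (CPM on TMM-scaled library sizes, multiplied to the mean library size), against 19.7% of all tested genes. In TPM this held for 6 of the 9, against 16.2%, and in unscaled counts for 6 of the 9, against 15.4%. Since the members were chosen on this contrast, these counts are no test and nothing is read from them.

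**Figure D2:**
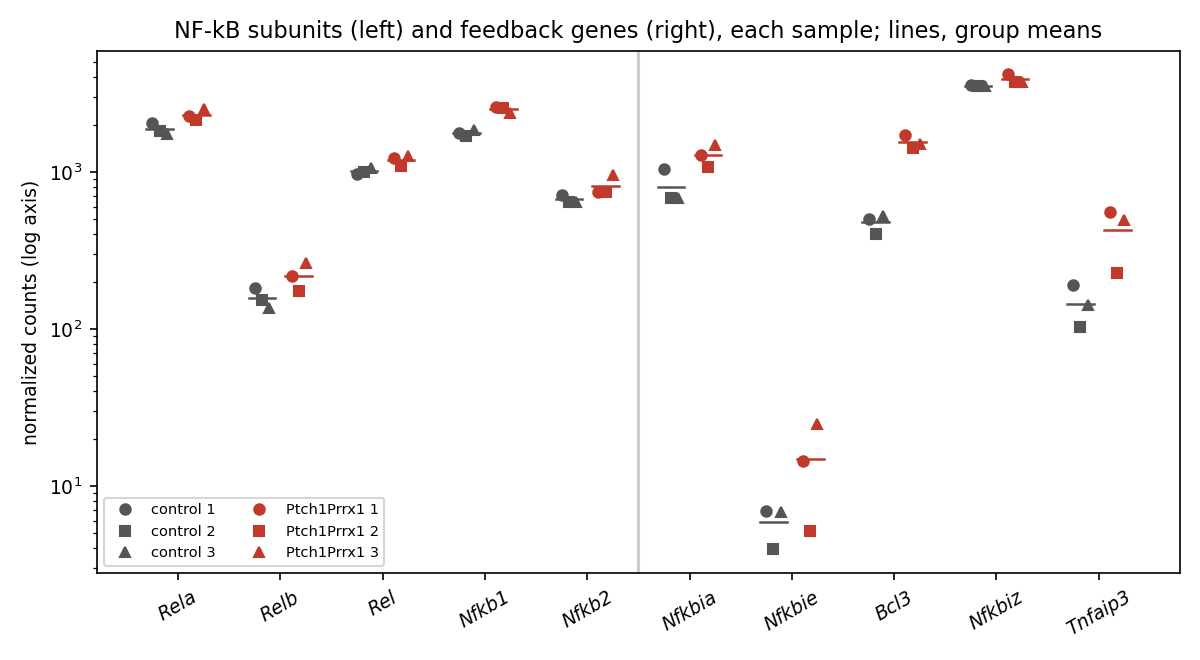
Normalized counts (log axis) of the 10 members in each of the 3 control and 3 Ptch1Prrx1 samples, with subunit genes on the left, feedback genes on the right and lines at the group means. *Bcl3* and *Tnfaip3* show the widest gaps between group means among the tested members, whereas *Nfkbiz* shows the smallest.

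Among the subunits, *Rela* (gene 19697) encodes the p65 subunit, which carries a transactivation domain. It had 2038, 1827 and 1734 normalized counts in control samples 1, 2 and 3 and 2279, 2140 and 2521 in Ptch1Prrx1 samples 1, 2 and 3. The groups did not overlap, and sample 2 was the lowest of the Ptch1Prrx1 samples. The mean moved from 1866 ± 156 to 2313 ± 193 (SD, n = 3), a log2 fold change of 0.31 (SE 0.09).

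*Relb* (gene 19698), whose product pairs with p52 in the non-canonical pathway, had 181, 153 and 135 normalized counts in the control samples and 217, 173 and 263 in the Ptch1Prrx1 samples. It was the one subunit whose groups overlapped in normalized counts, since Ptch1Prrx1 sample 2 lay below control sample 1. Its log2 fold change was 0.48 (SE 0.18), and it fell to 0.32 without Ptch1Prrx1 sample 3 and was 0.62 without Ptch1Prrx1 sample 2.

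*Rel* (gene 19696), which encodes c-Rel, the subunit best known from lymphocytes, had 974, 1003 and 1064 normalized counts in the control samples and 1224, 1096 and 1261 in the Ptch1Prrx1 samples. The gap between groups was narrow, from 1064 to 1096, and in TPM the ranges overlapped, with 15.6 in control sample 3 and 15.3 in Ptch1Prrx1 sample 2. The log2 fold change was 0.24 (SE 0.08), the smallest of the subunits.

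*Nfkb1* (gene 18033), the source of the p105 precursor and of p50, had 1774, 1680 and 1835 normalized counts in the control samples and 2580, 2537 and 2375 in the Ptch1Prrx1 samples. All Ptch1Prrx1 samples lay far above the control range, and the spread was small in both groups, with 1763 ± 78.2 against 2497 ± 108 (SD, n = 3). The log2 fold change of 0.50 (SE 0.07), or 1.42-fold, was the largest of the subunits.

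*Nfkb2* (gene 18034), the source of p100 and p52, had 709, 647 and 643 normalized counts in the control samples and 743, 748 and 948 in the Ptch1Prrx1 samples. Ptch1Prrx1 sample 3 stood above the other two, which lay close to control sample 1. The log2 fold change was 0.29 (SE 0.11), and 0.16 without Ptch1Prrx1 sample 3. In TPM the groups overlapped, with 22.5 in control sample 1 and 21.7 in Ptch1Prrx1 sample 1.

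Of the classical inhibitors, *Nfkbia* (gene 18035), which encodes IκBα, had 1041, 676 and 685 normalized counts in the control samples and 1280, 1073 and 1486 in the Ptch1Prrx1 samples. Control sample 1 stood apart from the other controls and lay just under Ptch1Prrx1 sample 2, and in unscaled counts these samples overlapped. The mean moved from 801 ± 208 to 1280 ± 206 (SD, n = 3), a log2 fold change of 0.68 (SE 0.19), or 1.60-fold. It was 0.91 without control sample 1 and 0.55 without Ptch1Prrx1 sample 3.

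*Nfkbie* (gene 18037), which encodes IκBε, was barely detected. It had 7, 4 and 7 expected counts in the control samples and 14, 5 and 25 in the Ptch1Prrx1 samples, and was not tested. The groups overlapped, since Ptch1Prrx1 sample 2 lay within the control range, and at this depth no difference was resolved. Its level was 0.27 ± 0.0781 TPM in control samples and 0.653 ± 0.452 TPM in Ptch1Prrx1 samples (SD, n = 3).

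The nuclear IκB gene *Bcl3* (gene 12051), whose product binds p50 and p52 homodimers and can turn them into activators or stabilise them as repressors, differed most. It had 499, 403 and 525 normalized counts in the control samples and 1727, 1422 and 1494 in the Ptch1Prrx1 samples. The lowest Ptch1Prrx1 sample was far above the highest control sample, and the spread within each group was small beside the gap. The mean moved from 476 ± 64.2 to 1548 ± 159 (SD, n = 3), a log2 fold change of 1.70 (SE 0.12), or 3.25-fold. Its log2 fold change ranged from 1.59 to 1.78 over 14 alternatives.

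*Nfkbiz* (gene 80859), the gene of IκBζ, an epithelial coactivator of p50-bound promoters, had 3592, 3540 and 3506 normalized counts in the control samples and 4169, 3731 and 3729 in the Ptch1Prrx1 samples. It was the member with the most counts and the least change. The groups did not overlap, and Ptch1Prrx1 sample 1 stood above the other two. The log2 fold change was 0.13 (SE 0.07), and 0.08 without Ptch1Prrx1 sample 1.

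*Tnfaip3* (gene 21929), which encodes the ubiquitin-editing enzyme A20, had 189, 102 and 142 normalized counts in the control samples and 558, 226 and 492 in the Ptch1Prrx1 samples. The groups did not overlap, but Ptch1Prrx1 sample 2 lay much nearer to control sample 1 than to the other Ptch1Prrx1 samples. The mean moved from 144 ± 43.3 to 425 ± 176 (SD, n = 3), a log2 fold change of 1.56 (SE 0.35), or 2.95-fold. Over 14 alternatives its log2 fold change ranged from 1.24 on log2(TPM + 1) to 1.86 without Ptch1Prrx1 sample 2. At the 2-fold limit, *Tnfaip3* was the member just inside at 1.56 and *Nfkbia* the member just outside at 0.68.

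**Figure D3:**
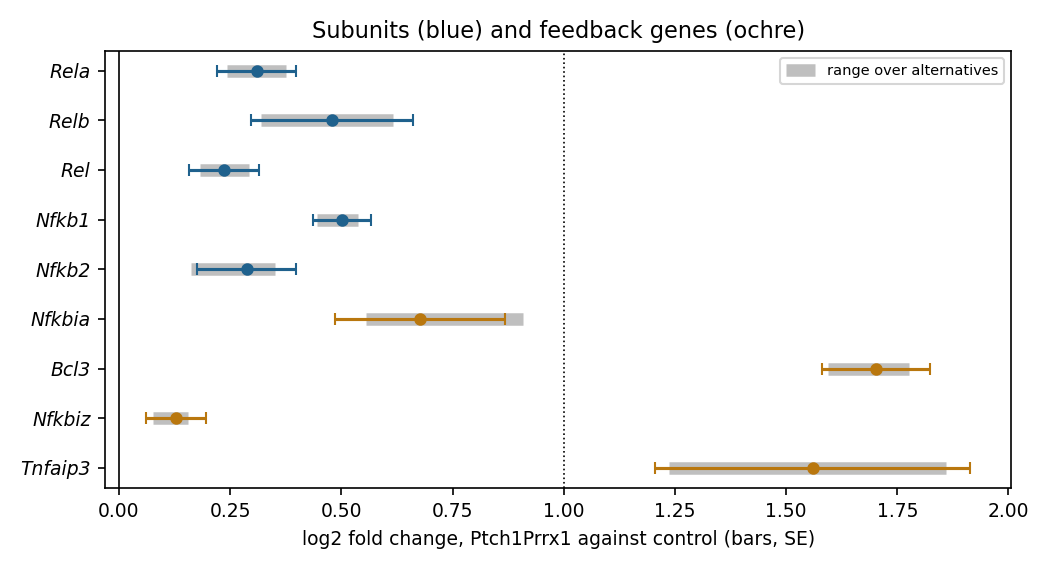
Log2 fold changes of the 9 tested members, Ptch1Prrx1 against control, with bars for the standard error and the range over the alternatives. The subunit genes lie between 0.24 and 0.50, and the feedback genes spread from 0.13 for *Nfkbiz* to 1.70 for *Bcl3*.

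The spread among replicates differed between members. Within the Ptch1Prrx1 samples the highest value was 4.85 times the lowest for *Nfkbie*, 2.47 times for *Tnfaip3*, 1.52 times for *Relb* and 1.38 times for *Nfkbia*, but 1.09 times for *Nfkb1*. Ptch1Prrx1 sample 2 was the lowest of its group for 7 of the 10 members and the highest for none, where among all tested genes it was lowest for 30.5% and highest for 27.4%. Ptch1Prrx1 sample 3 was the highest for 6 members, and for 31.7% of all tested genes. Among the controls, sample 1 was the highest for 7 members and for 35.3% of all tested genes, and sample 2 for no member and for 31.2%. The 10 members of a sample share its library, so these orders are not independent observations.

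Levels of different genes were compared per length, in TPM. In control samples the order of mean level was *Nfkbiz* (105 TPM), *Rela* (80.4 TPM), *Nfkbia* (55.2 TPM), *Nfkb1* (48.3 TPM), *Bcl3* (28.2 TPM), *Nfkb2* (21.3 TPM), *Rel* (14.5 TPM), *Relb* (7.58 TPM), *Tnfaip3* (3.50 TPM) and *Nfkbie* (0.27 TPM). Of neighbours in this order, only the ranges of *Nfkbia* and *Nfkb1* overlapped. In Ptch1Prrx1 samples *Bcl3* moved from rank 5 to rank 3 at 89.2 ± 6.54 TPM (SD, n = 3), and its range overlapped those of *Rela* above it (96.3 ± 11.3 TPM) and *Nfkbia* below it (86.5 ± 16.7 TPM). The ranges of *Nfkbiz* and *Rela* and those of *Relb* and *Tnfaip3* overlapped as well, and *Tnfaip3* at 10.0 ± 4.05 TPM lay beside *Relb* at 10.4 ± 2.56 TPM.

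The feedback genes were then set against the subunits within each sample. The mean log2(CPM + 0.5) of the 5 feedback genes was 4.16, 3.76 and 3.97 in control samples 1, 2 and 3 and 5.03, 4.50 and 5.06 in Ptch1Prrx1 samples 1, 2 and 3. That of the 5 subunit genes was 5.41, 5.30 and 5.29 in the control samples and 5.68, 5.56 and 5.81 in the Ptch1Prrx1 samples. Both sets were higher in every Ptch1Prrx1 sample than in every control sample, by 0.90 on average for the feedback genes and 0.35 for the subunits.

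The difference, feedback minus subunit, was -1.25, -1.54 and -1.32 in the control samples and -0.65, -1.07 and -0.75 in the Ptch1Prrx1 samples. The groups did not overlap, and the means of -1.37 ± 0.16 and -0.82 ± 0.22 (SD, n = 3) differed by 0.55. Most of this came from the 2 members with the largest differences: without *Bcl3* and *Tnfaip3* the difference between groups was 0.11, and without the scarcely detected *Nfkbie* it was 0.63.

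**Figure D4:**
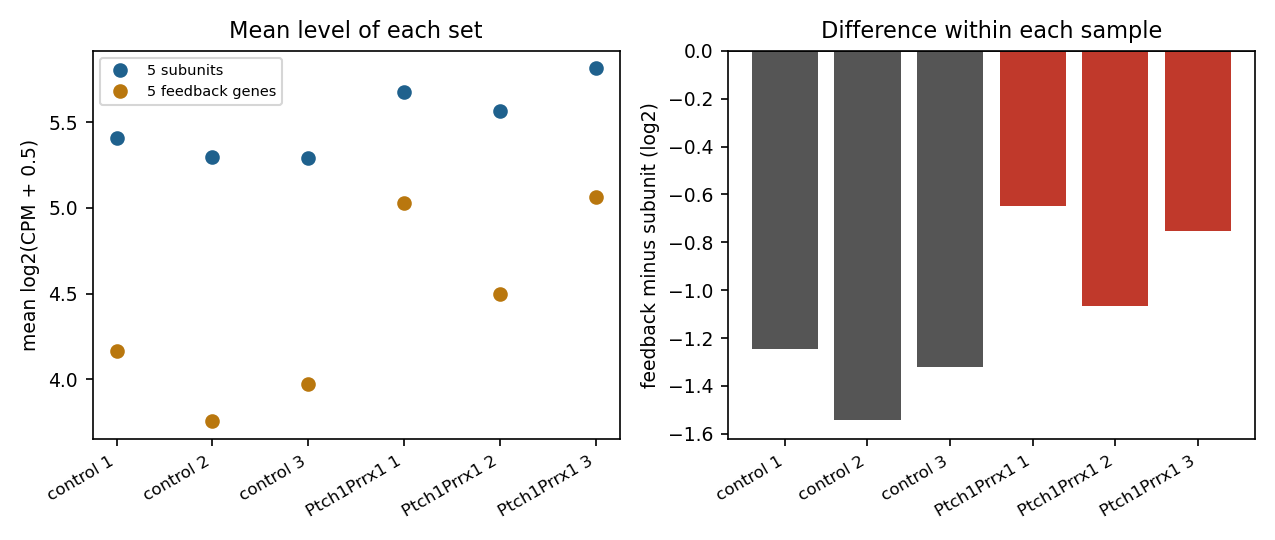
Points on the left give the mean log2(CPM + 0.5) of the 5 feedback genes (ochre) and the 5 subunit genes (blue) in each sample, and bars on the right give feedback minus subunit on the log2 scale within each sample, drawn down from 0. The bars of the 3 Ptch1Prrx1 samples (red) end from -1.07 to -0.65, nearer to 0 than those of the control samples (grey) at -1.54 to -1.25.

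In summed TPM, the subunits came to 176, 169 and 172 in the control samples and 204, 203 and 237 in the Ptch1Prrx1 samples, and the feedback genes to 206, 180 and 190 against 305, 267 and 321. The ratio of feedback to subunit transcripts was thus 1.17, 1.06 and 1.11 in the control samples and 1.49, 1.32 and 1.35 in the Ptch1Prrx1 samples. *Bcl3* made up 13.9%, 13.4% and 16.8% of the feedback TPM in the control samples and 31.2%, 30.7% and 28.2% in the Ptch1Prrx1 samples. The share of *Nfkbiz* went the other way, from 49.8%, 58.8% and 55.7% to 37.5%, 40.1% and 35.0%, although its own level was not lower.

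Transcripts of binding partners were compared in the same way. *Bcl3* TPM per summed *Nfkb1* and *Nfkb2* TPM was 0.413, 0.360 and 0.441 in the control samples and 1.09, 0.909 and 0.937 in the Ptch1Prrx1 samples, with no overlap between the groups. *Nfkbia* TPM per *Rela* TPM was 0.828, 0.591 and 0.630 in the control samples and 0.906, 0.815 and 0.960 in the Ptch1Prrx1 samples. Here control sample 1 lay above Ptch1Prrx1 sample 2, so the groups overlapped. *Rela* made up 44.9% to 48.0% of the subunit TPM in control samples and 43.8% to 46.1% in Ptch1Prrx1 samples, ranges that overlapped. These are ratios of transcripts and not of proteins.

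Some members share reads or positions with other genes. The expected counts of *Relb*, *Rel* and *Nfkb2* were not whole in 6 of 6 samples and those of *Nfkbiz* in 5, which means that reads were divided between features. In RefSeq, *Nfkb1* and *Bcl3* each overlap a long non-coding RNA gene, *Gm46827* and *Gm16174*, and *Nfkb2* overlaps *4833438C02Rik* and *Psd*. Of these only *Psd* was listed, at 63.3 to 109 normalized counts over the 6 samples against 643 to 948 for *Nfkb2*. Use of strand in counting is not given in the sources used here.

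The rest of the pathway was read from 6 lists of 134 genes outside the members, of which 130 were listed and 95 tested. The lists were chosen with earlier results of these data known, so the counts below describe the lists and are no test of the pathway. In edgeR's quasi-likelihood test, with p adjusted over all 12999 genes, 8 were called higher (8.42%, against 2.34% of all tested genes) and 0 lower (against 0.892%). The 8 include the target gene *Ptgs2*, which passed the filter on low counts only through the Ptch1Prrx1 samples. With an adjusted p of at most 0.05 and no minimum fold, 13 were higher and 4 lower, where 7.61% and 6.41% of all tested genes were. At an unadjusted p under 0.05 in edgeR, 22 were higher and 12 lower, counts that were not set against all tested genes. DESeq2, run on all 17784 listed genes without the filter, called 10 higher and 0 lower. It called 516 genes in either direction, and how many genes received an adjusted p was not counted. The limma fit on log2(TPM + 1) called 5 and 0, where it called 234 of 11976 genes in either direction. Without control sample 2, no pathway gene was called in edgeR, and 59 genes were called in all.

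Of the ligands, 5 were tested and 1 was called. *Il1a*, the alarmin interleukin-1α of epithelial cells, rose from 558, 555 and 541 normalized counts in the control samples to 1663, 933 and 1032 in the Ptch1Prrx1 samples (log2 fold change 1.13, SE 0.21, adjusted p = 0.0182 from edgeR). The call was lost without any one of the control samples, and without Ptch1Prrx1 sample 1 the value was 0.84. *Tnf* had 58.6, 33.4 and 26.2 normalized counts against 43.4, 50.3 and 42.8 (log2 fold change 0.21, SE 0.32, adjusted p = 0.687 from edgeR), and its direction turned without control sample 3. *Il1b*, at 3.88 to 13.3 normalized counts, was not tested.

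Of 19 receptors tested, 1 was called. *Tnfrsf12a*, the receptor of TWEAK, rose from 519, 378 and 426 normalized counts to 1534, 930 and 1004 (log2 fold change 1.39, SE 0.21, adjusted p = 0.0113 from edgeR), and the call was lost without control sample 2. The TNF receptor gene *Tnfrsf1a* passed the adjusted p at a smaller size, with 3603, 3538 and 3423 against 5317, 4889 and 4172 (0.44, SE 0.09, adjusted p = 0.0256 from edgeR). It did not pass without any one control sample or without Ptch1Prrx1 sample 2, where edgeR's adjusted p was 0.0643 to 0.103. *Ltbr*, the lymphotoxin β receptor, chosen after its value was seen, was the third receptor to pass it (0.32, SE 0.06, adjusted p = 0.0217 from edgeR). Of all tested genes 7.61% were higher at the adjusted p alone. *Il1r1*, the signalling receptor of interleukin-1, overlapped between groups (0.13, SE 0.26), and its direction turned without Ptch1Prrx1 sample 1.

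The adaptors and kinases were all tested, 32 in number, with a median log2 fold change of 0.02 and 16 above 0. The one called was *Map3k8*, the kinase Tpl2 that p105 holds inactive, with 218, 230 and 272 normalized counts against 640, 431 and 454 (1.08, SE 0.17, adjusted p = 0.0125 from edgeR). It fell short of a call without control sample 2 or Ptch1Prrx1 sample 1, and on the log2(TPM + 1) scale. The IκB kinase genes *Chuk*, *Ikbkb* and *Ikbkg* did not pass the test, with log2 fold changes of 0.19, 0.08 and -0.15, nor did *Map3k14*, the kinase of the non-canonical pathway, at -0.14. Chosen after their values were seen, *Birc2* (-0.34), *Card14* (-0.62), *Ripk2* (-0.54) and *Tab1* (-0.29) were the 4 genes that fell at the adjusted p alone. Of all tested genes 6.41% were lower by that rule.

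Among inhibitors outside the members, neither remaining IκB gene passed edgeR's test, with 0 at an unadjusted p under 0.05 and 0 called by DESeq2. *Nfkbib*, which encodes IκBβ, had 530, 546 and 567 normalized counts against 574, 637 and 620 (0.16, SE 0.08), and *Nfkbid* 16.9, 17.7 and 14.6 against 28.9, 14.4 and 20.9 (0.38, SE 0.33). Of 21 other negative regulators tested, edgeR called 0, and DESeq2 called 1 higher. At an unadjusted p under 0.05 in edgeR, 5 were higher and 1 lower, counts that were not set against all tested genes. At edgeR's adjusted p alone 3 were higher, where 7.61% of all tested genes were. These were *Irak3* (0.72), *Zc3h12a*, the mRNA-degrading Regnase-1 (0.70), and *Nlrx1* (0.44), named after their values were seen. *Cyld*, a deubiquitinase, had a log2 fold change of 0.07, and *Tnip1*, a partner of A20, had -0.04, with neither passing the test.

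Target genes outside the feedback loop held most of the calls, with 5 of 16 tested higher, against 2.34% of all tested genes. The other genes of the 34 listed were not tested, and *Ptgs2* passed the filter on low counts only through the Ptch1Prrx1 samples. *Ptgs2*, one of the 5, could therefore hardly be called other than higher. Of the 16, *Ptgs2* included, 10 lay above 0, against 48.5% of all tested genes, and the median log2 fold change was 0.63. These values are a description. The 6 below 0, named after their values were seen, did not pass edgeR's test and were *Csf1* (-0.07), *Ehf* (-0.04), *Gadd45b* (-0.30), *Irf1* (-0.10), *Lcn2* (-0.01) and *Sod2* (-0.20), of which *Sod2* did not overlap between groups. *Ptgs2*, which encodes cyclooxygenase-2, had 2.98, 0.983 and 2.91 normalized counts in the control samples and 3118, 283 and 545 in the Ptch1Prrx1 samples. The control samples held at most 3 counts each, so no fold or p is given, and Ptch1Prrx1 sample 1 lay far above the other two. *Tnfaip2* went from 14.9, 15.7 and 14.6 to 259, 23.6 and 137 (3.21, SE 0.78, adjusted p = 0.0375 from edgeR), with Ptch1Prrx1 sample 2 close to the controls. *Plau*, the urokinase gene, had 282, 192 and 313 against 1331, 393 and 810 (1.69, SE 0.41, adjusted p = 0.0380 from edgeR). *Ier3*, which is also an immediate early gene, had 1783, 1547 and 1373 against 6376, 3400 and 3133 (1.46, SE 0.27, adjusted p = 0.0186 from edgeR). The fifth was *Cxcl16*, named after its value was seen (1.45, SE 0.24, adjusted p = 0.0148 from edgeR).

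The call of *Ptgs2* was lost without control sample 2, and that of *Ier3* without control sample 2 or 3. The calls of *Tnfaip2* and *Plau* were lost without any one control sample, without Ptch1Prrx1 sample 1 or 3, and in both fits on TPM. The adhesion gene *Icam1* and the chemokine gene *Cxcl1* were not called: *Icam1* had 10.9, 11.8 and 25.2 normalized counts against 97.2, 15.4 and 76.7 (adjusted p = 0.0829 from edgeR), and *Cxcl1* 26.8, 3.93 and 21.4 against 79.6, 12.3 and 85.6 (adjusted p = 0.158 from edgeR). In both, Ptch1Prrx1 sample 2 lay within the control range, and it was also the lowest Ptch1Prrx1 sample for *Tnfaip3*. *Icam1* was called with DESeq2 and without Ptch1Prrx1 sample 2, and *Cxcl1* was called in the fit with a replicate block.

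**Figure D5:**
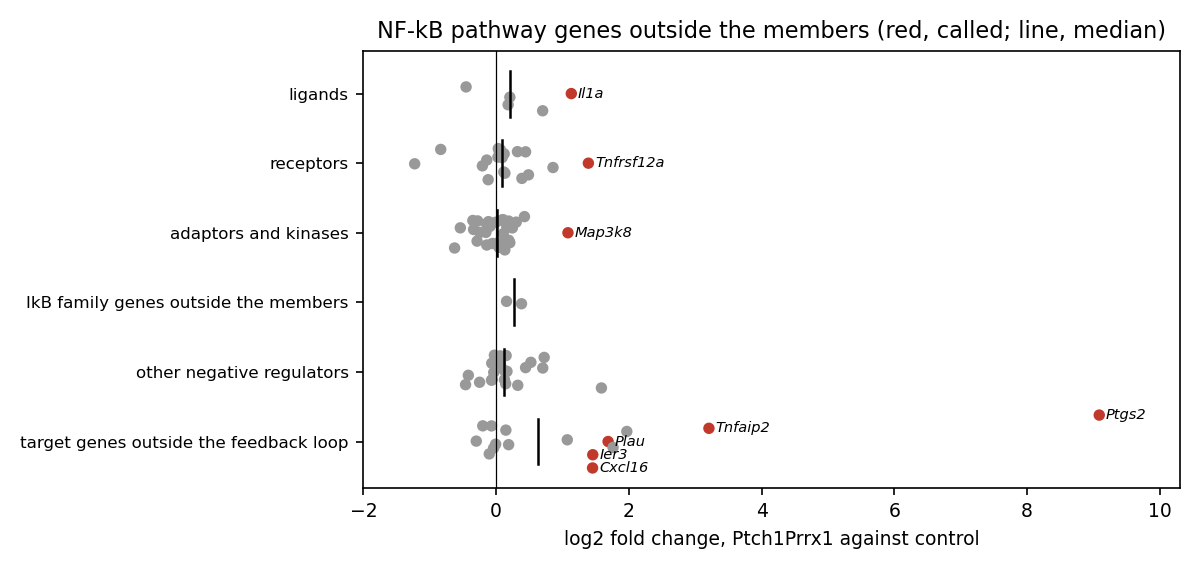
Log2 fold changes of the 95 tested pathway genes outside the members, by list, with called genes in red and a line at each median. The 5 called target genes lie to the right of 1, and the point at 9.09 is *Ptgs2*, whose fitted value depends on near-zero control counts.

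Immediate early genes, which respond to handling as well as to signals in the tissue, differed between the same groups. Of the 20 on the list, which was chosen with earlier results known, 14 were called higher, against 2.34% of all tested genes. This count is a description. *Egr3*, at 0.05, 0 and 0 TPM in the control samples and 0.57, 0.27 and 0.30 TPM in the Ptch1Prrx1 samples, passed the filter on low counts only through the latter. *Egr2* was also low in the control samples, at 0.13 to 0.20 TPM against 0.40 to 1.09 TPM. The summed level of the 20 was 2750, 2954 and 2564 TPM in control samples 1, 2 and 3. In Ptch1Prrx1 samples 1, 2 and 3 it was 5568, 5652 and 4682 TPM, without overlap. *Klf4* alone gave 1106, 1153 and 1120 TPM in the control samples and 1218, 1338 and 1178 TPM in the Ptch1Prrx1 samples. Within the Ptch1Prrx1 group, sample 2 had the highest sum and sample 3 the lowest. The 4 conjunctival markers listed summed to 1408 to 2351 TPM and 2202 to 4745 TPM, with the highest value in Ptch1Prrx1 sample 1. The part of these, of *Krt14* or of the immune markers given above, in the values of *Bcl3*, *Tnfaip3*, *Nfkbia* and the target genes was not tested.

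The genes most like *Bcl3* and *Nfkbia* were found by the Euclidean distance between profiles of log2 CPM over the 6 samples, each centred on its control mean. For *Bcl3* they were *Tenm4* (distance 0.363), *Atp8b2* (0.373), *Lrrc2* (0.469), *Aldh1a3* (0.471) and *Gm42226* (0.539), with log2 fold changes from 1.51 to 2.04. For *Nfkbia* they were *Il6ra* (0.186), *Pcdhga2* (0.256), *Chka* (0.307), *Arid5a* (0.313) and *Map7d1* (0.315), with log2 fold changes from 0.66 to 0.81. The measure includes the size of the difference between groups, so the likeness is a description.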

How the data were processed

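Corneal epithelial RNA-seq of 3 control and 3 Ptch1Prrx1 samples was analysed. Reads were aligned with Bowtie2 2.2.5 to mm9 and quantified with RSEM 1.2.12, per the submitters' processing notes; the annotation and the use of strand are not given in the sources used here. The labels name a TruSeq kit and the study's methods describe rRNA depletion. The authors deposited expected counts, which RSEM estimates per gene without scaling for depth and which can be fractional (39.4% of values above 0 were not whole). The authors also deposited TPM values, which allow for gene length as well as depth. Columns of other samples used numbered 0.

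Expected counts were rounded and tested with edgeR 4.0.16 (filterByExpr, TMM factors from 0.960 to 1.03, quasi-likelihood test, Benjamini-Hochberg adjustment over 12999 genes) in R 4.3.3. Standard errors were derived from the quasi-likelihood F statistic. The thresholds are those of the study's methods, whose text names no test. The members and the pathway and marker lists were chosen with earlier results of these data known. The genes named by a fixed rule were all members, 15 pathway genes whatever their values, up to 4 called genes of largest change per list and the 5 nearest profiles of *Bcl3* and *Nfkbia*. Further pathway genes were named after their values were seen, as marked where they appear, and so were single marker genes. The groups and the replicate numbers came from the labels. The study's methods name 3 biological replicates per group. Neither source says that samples are separate animals, so p-values measure the spread between these samples. Samples of a group differed by more than sampling noise (chi-square per degree of freedom 10.1 to 37.8). Floors of 3 counts cover counting error only. The alternatives were DESeq2 1.42.0, other size factors, filters and thresholds, limma 3.58.1 on log2-transformed TPM (pseudocount 1 or 0.1), a replicate block and each sample left out in turn.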

Additional observations from a re-analysis of the deposited data

How the results depend on the processing

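The members were chosen on this contrast and the alternatives reuse the same samples, so the member values in this section are a description. All 126 alternative values of the members' log2 fold changes kept their direction. Some moved by more than the SE. *Nfkbia*, at 0.68 (SE 0.19), was at 0.91 without control sample 1. *Nfkb2*, at 0.29 (SE 0.11), was at 0.16 without Ptch1Prrx1 sample 3. The number of genes called, 420, was 1822 with no minimum fold, 234 on log2(TPM + 1) and 59 to 430 with 1 sample left out. It was lowest without control sample 2. Between 1 and 2 members met the call rule with 1 sample left out. *Tnfaip3* then missed it in every case but that without Ptch1Prrx1 sample 2, at log2 fold changes of 1.32 to 1.80. Pathway genes called higher numbered 13 with no minimum fold (4 were then lower), 5 on log2(TPM + 1), and 0 to 10 with 1 sample left out. The feedback minus subunit difference, 0.55, was 0.11 without *Bcl3* and *Tnfaip3*, an alternative added after seeing the data, which removes the members with the largest differences. The log2 fold change of *Il1r1* was -0.022 without Ptch1Prrx1 sample 1 (range over samples left out -0.022 to 0.37), that of *Tnf* was -0.018 without control sample 3 (-0.018 to 0.61), and that of *Tnip1* was 0.015 without control sample 2 and 0.043 without Ptch1Prrx1 sample 2 (-0.14 to 0.043); the cause was not tested. With a replicate block 390 genes were called, 2 members met the rule and 9 pathway genes were higher. Same-numbered samples deviated together with correlations of 0.131, 0.0467 and 0.0594, and control sample 2 correlated best with Ptch1Prrx1 sample 3 (0.163), so the numbers were not taken to pair the samples. Depth limits *Nfkbie* and *Il1b*, and groups of 3 limit the precision of the other values.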
